A study of Mus musculus with 6 samples.

Results

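Complement is a set of plasma and cell surface proteins that tag particles for uptake and call in immune cells. In the classical pathway the recognition molecule C1q, assembled from chains A, B and C, binds immune complexes and dying cells and starts the cleavage of C4 and C2 into a convertase, an enzyme complex that cleaves C3. In the alternative pathway C3 itself joins with factor B, and properdin holds the resulting convertase together. Macrophages are known as a main source of C1q, and inherited lack of C1q is a known risk factor for lupus. The genes described here are 9 complement components and regulators among the 32879 genes of the count files: C1qa, C1qb and C1qc (the C1q chains), C4b and C2 (the classical convertase), C3, Cfb (factor B) and Cfp (properdin), and Vsig4 (a macrophage receptor for C3 fragments that also inhibits the alternative convertase). They were taken by gene symbol after the RefSeq records of each gene had been summed.

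The libraries came from peritoneal macrophages (PMs) sorted by flow cytometry as F4/80+ CD11b high cells from 3 diseased-BWF1 mice and 3 control mice, with 1 library per mouse. BWF1 is the [NZB×NZW]F1 hybrid, a lupus-prone strain, and its mice were 31, 31 and 34 weeks old, with high titers of anti-dsDNA antibodies and severe proteinuria by the study's methods. Controls were [NZW×BALB/c]F1 mice of 33, 33 and 30 weeks, a hybrid that the methods say carries the same H2 haplotype. All mice were female. The groups share the NZW parent and differ in the other parent as well as in disease, and strain and disease cannot be told apart. The edgeR and DESeq2 p-values below set the difference between the groups against the spread among mice within each group (n = 3).

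The C1q genes lie side by side on chromosome 4 (GRCm38.p6), all on the minus strand and within 18719 bases. C1qa spans chr4:136895916-136898844, C1qc chr4:136889801-136892936 and C1qb chr4:136880126-136886200, each with 3 exons. C4b (chr17:34728139-34743902, 41 exons), Cfb (chr17:34856374-34862514, 18 exons) and C2 (chr17:34862602-34882100, 18 exons) lie within 153962 bases of chromosome 17, in the class III part of the H2 complex, and only 87 bases separate Cfb from C2. C3 (chr17:57203967-57228136, 41 exons) lies farther along the same chromosome. Cfp (chrX:20925454-20931555, 9 exons) and Vsig4 (chrX:96247201-96293438, 7 exons) are on the X chromosome.

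To show what precedes a pair of neighbouring C1q genes and C3, whose levels differed in opposite directions between the groups, the 250 bases before each start site are given from RefSeq (GRCm38.p6, minus strand, 5′ to 3′), at chr4:136886201-136886450, chr4:136892915-136893164 and chr17:57228137-57228386. The start sites are those of the promoter table, and the one used for C1qc lies inside the gene span given above, so the last bases of its stretch fall within that span. Capitals mark matches to a searched motif on either strand.
C1qb: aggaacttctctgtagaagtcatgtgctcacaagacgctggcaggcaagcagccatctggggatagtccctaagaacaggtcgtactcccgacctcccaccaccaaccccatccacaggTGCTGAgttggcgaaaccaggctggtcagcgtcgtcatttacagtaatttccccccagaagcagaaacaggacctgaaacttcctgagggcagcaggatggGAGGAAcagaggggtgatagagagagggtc
C1qc: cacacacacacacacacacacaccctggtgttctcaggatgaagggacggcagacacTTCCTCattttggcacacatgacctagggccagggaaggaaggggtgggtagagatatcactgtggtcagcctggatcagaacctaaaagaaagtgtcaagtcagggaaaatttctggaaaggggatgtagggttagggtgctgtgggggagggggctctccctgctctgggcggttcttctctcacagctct
C3: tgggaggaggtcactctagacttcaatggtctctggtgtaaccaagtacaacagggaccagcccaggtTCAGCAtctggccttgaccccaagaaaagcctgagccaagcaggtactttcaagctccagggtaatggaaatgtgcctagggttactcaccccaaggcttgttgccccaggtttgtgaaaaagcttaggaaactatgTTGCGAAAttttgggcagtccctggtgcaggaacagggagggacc

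Promoters were held for 5 of the 9 genes (C1qb, C1qc, C3, Cfp and Vsig4) and were searched for motifs on both strands. The core of the element bound by MAF factors (TGCTGA) occurred in C1qb, 131 bases before the start, and in C3, 182 bases before it, and is found in 16.1% of 32851 mouse promoters of this length. The core bound by the macrophage factor PU.1 (GAGGAA) occurred in C1qb, C1qc and Vsig4 and is in 23.3% of promoters. C3 alone among the 5 had a match to the C/EBP motif (TTGCNNAA), 45 bases before the start, which 9.56% of promoters hold. The IRF motif (GAAANNGAA, 7.13% of promoters) and the TATA box (TATAAA, 12.4%) had no match in any of the 5, and Cfp had none for any of these motifs. No matches overlapped one another.

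The libraries held 3629901 to 5003360 estimated read counts each, of which 89.08 to 93.02% fell on named genes, and 3 counts correspond to 0.652 to 0.888 CPM (counts scaled to a common library size). Control 3 stood apart from the other 5 libraries in a bias tied to transcript length: its genes under 1000 bases lay 0.27 above and its genes over 7000 bases 0.39 below the mean of all libraries (median, log2), where the other 5 stayed between -0.08 and 0.15. The log2 differences of the 9 genes, and of some of the other genes, are therefore given also without that mouse or after a correction for transcript length. All 9 markers of resident PMs were measured, and none was called by the rule given below (1.22% of all genes tested were). An unadjusted edgeR p under 0.05 was reached by 3 of them, against 13.2% of all genes tested. Of these, Timd4 (log2 difference -0.53 ± 0.21) and Icam2 (-0.55 ± 0.16) were lower and Cd14 (0.88 ± 0.30) was higher in diseased-BWF1 mice. The groups did not overlap in these 3, nor in Adgre1 (lower) and Prg4 (higher), against 20.8% of all genes tested. Without control 3 the log2 differences of Timd4, Icam2 and Cd14 were -0.55, -0.64 and 1.05. The summed level of the 9 markers was 26700 to 29340 CPM in control and 29670 to 36630 CPM in diseased-BWF1 mice. Prg4 was the largest part of this sum, at 15520, 17420 and 16140 CPM in control and 17590, 24510 and 18100 CPM in diseased-BWF1 mice. The sum therefore mostly follows Prg4. The part of these marker differences in the complement levels was not tested. The gene for F4/80, Adgre1, stood at 2127, 2172 and 2265 CPM in control and 1934, 2040 and 1846 CPM in diseased-BWF1 mice. Gata6, the factor that defines large PMs, stood at 94.4, 120, 82.3 and at 113, 108, 68.6 CPM.

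Group differences were tested with edgeR's quasi-likelihood test over the 10505 genes that passed the low-count filter, and a gene was called where its p, adjusted by Benjamini and Hochberg's method, was under 0.05 and its levels differed 1.5-fold or more. By that rule 128 genes (1.22%) were called, and none of the 9 complement genes, all of which were tested. At an unadjusted p under 0.05 there were 6 complement genes (C1qa, C1qb, C1qc, C2, C3 and Cfp) against 13.2% of all genes. DESeq2 with the same thresholds called 3.54% of all genes and 4 of the 9: C1qa, C1qc and C2 as lower in diseased-BWF1 mice (2.28% of genes were called lower) and C3 as higher (1.27% were called higher). Control and diseased-BWF1 mice stood wholly apart in 6 of the 9, against 20.8% of all genes. Of these, 5 were lower in diseased-BWF1 mice (11.2% of all genes) and C3 was higher (9.59%). In bulk libraries, fewer cells of a type and less RNA per cell cannot be told apart.

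**Figure D1:**
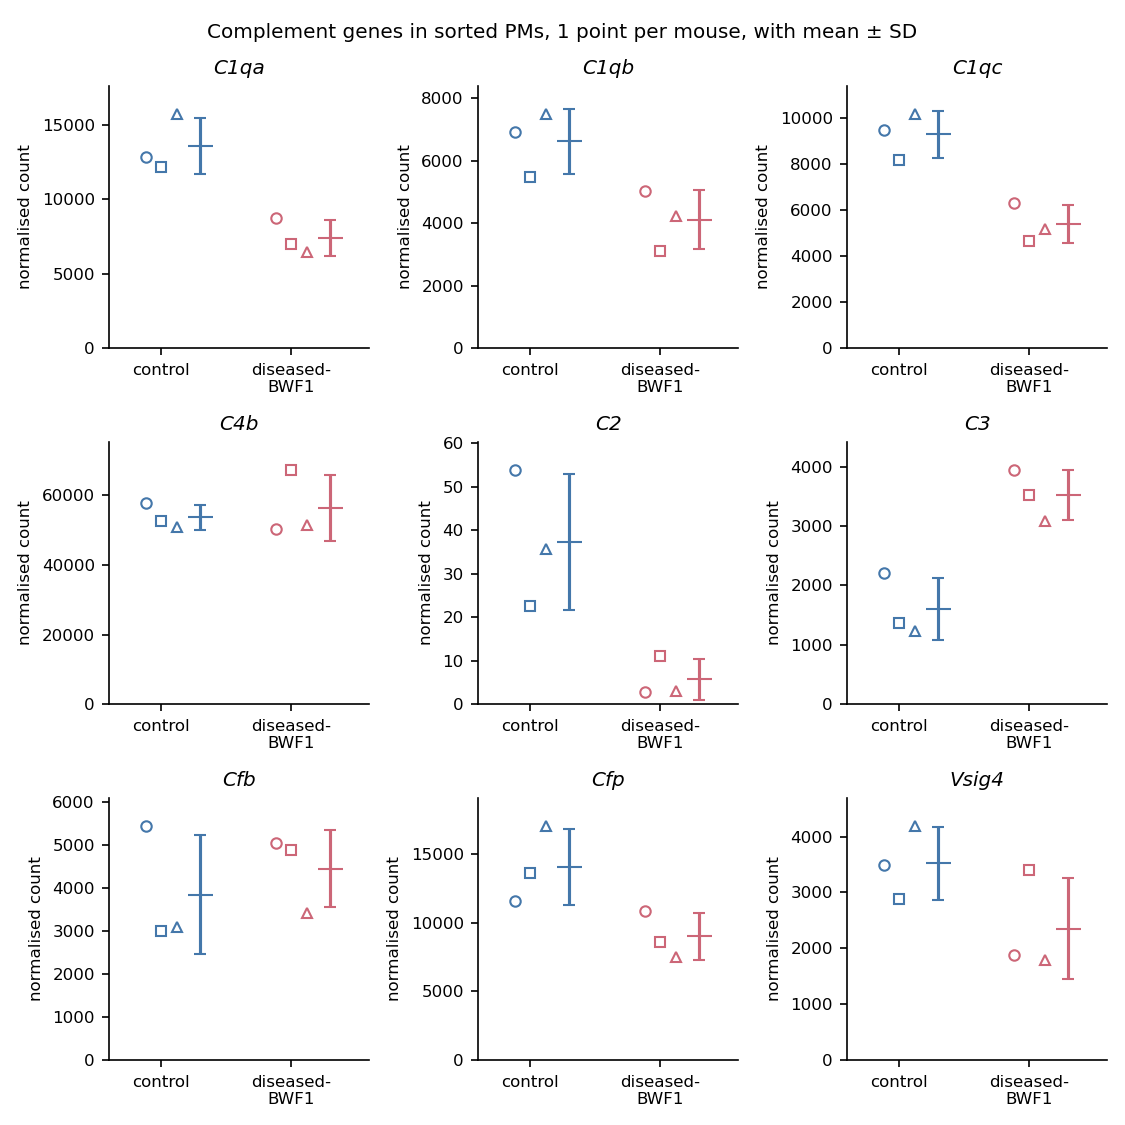
Normalised counts (linear axes from 0) of the 9 complement genes in sorted PMs, with 1 symbol per mouse (circle, square and triangle for replicates 1, 2 and 3) and the group mean ± SD beside them (n = 3). The groups stand apart for the C1q chains, C2, C3 and Cfp, with C3 the only one of these that is higher in diseased-BWF1 mice, and overlap for C4b, Cfb and Vsig4.

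All 3 C1q chains were lower in every diseased-BWF1 mouse than in any control mouse, by 1.61 to 1.84-fold. Values are counts divided by DESeq2's size factors (normalised counts). C1qa, chain A, stood at 12885, 12165 and 15751 in control mice 1 to 3 and at 8787, 7023 and 6466 in diseased-BWF1 mice 1 to 3, or 13600 ± 1897 against 7425 ± 1212 (SD, n = 3). The highest diseased value lay well below the lowest control value. On the log2 scale the difference, diseased-BWF1 minus control, was -0.88 ± 0.19 (SE), with an edgeR adjusted p of 0.0857 and a DESeq2 adjusted p of 0.000183.

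C1qc, chain C, stood at 9488, 8185 and 10161 in control and 6292, 4668 and 5178 in diseased-BWF1 mice. Diseased-BWF1 mouse 1 was the highest of its group, as it was for C1qa, and still below each control. Its log2 difference was -0.79 ± 0.17, with an edgeR adjusted p of 0.0937 and a DESeq2 adjusted p of 0.000412. C1qb, chain B, stood at 6911, 5469 and 7492 against 5015, 3108 and 4214. Here the gap was narrow, with the highest diseased mouse just under the lowest control. C1qb had a log2 difference of -0.69 ± 0.22, with an adjusted p of 0.229 by edgeR and 0.0545 by DESeq2.

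The proportions of the chains overlapped between the groups. Of the counts on the C1q genes, C1qa took 46.1 ± 1.81% in control and 44.0 ± 3.35% in diseased-BWF1 mice, C1qb 22.4 ± 1.21% and 24.2 ± 2.87%, and C1qc 31.5 ± 1.00% and 31.8 ± 0.72% (SD, n = 3). Summed, the chains gave 29500 ± 3797 normalised counts in control and 16920 ± 2802 in diseased-BWF1 mice. Control 3, the library with the length bias, had the highest level of each of these short transcripts (1040 to 1203 bases). Without it the log2 differences were -0.75 for C1qa, -0.59 for C1qb and -0.72 for C1qc, and with the length correction -0.77, -0.59 and -0.70, with edgeR adjusted p-values of 0.0591, 0.248 and 0.0833. DESeq2 called C1qa and C1qc with each mouse left out in turn (highest adjusted p 0.0102 and 0.016), and C1qb without control 2 (0.0471) or without diseased-BWF1 1 (0.0153).

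C4b and C2, which together form the classical convertase, behaved differently from each other. C4b, the most abundant of the 9 by CPM and at rank 6 of the 10505 genes tested, stood at 57820, 52567 and 50889 normalised counts in control and 50341, 67309 and 51428 in diseased-BWF1 mice. The groups overlapped, and diseased-BWF1 mouse 2 was the highest of all 6. Its log2 difference was 0.07 ± 0.18 (edgeR adjusted p = 0.913), and it was -0.08 without that mouse and 0.03 without control 3. Of C4b's 75-base sequences 22.7% also occur in its near copy C4a, so reads could be split between them. Taken as 1 feature, C4a and C4b had a log2 difference of 0.06 ± 0.18 (edgeR adjusted p = 0.918). C4a alone, which stood at 2910 to 3257 normalised counts in control and 2780 to 3556 in diseased-BWF1 mice, had a log2 difference of -0.01 ± 0.15.

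C2 was scarce in every library, with 65, 22 and 31 counts in control and 3, 11 and 3 in diseased-BWF1 mice, or 53.8, 22.6 and 35.6 against 2.83, 11.1 and 3.03 normalised counts. No diseased-BWF1 mouse reached the lowest control. C2 had a log2 difference of -2.71 ± 0.58 (edgeR adjusted p = 0.0859, DESeq2 adjusted p = 0.00451). The DESeq2 call was lost without control 1, control 3, diseased-BWF1 1 or diseased-BWF1 3 (adjusted p = 0.17, 0.0508, 0.0663 and 0.0588), and edgeR called C2 when the low-count filter was dropped (adjusted p = 0.0235). By edgeR the log2 difference was -3.63 without diseased-BWF1 2, the highest mouse of its group, and -2.75 without control 3. Over the summed counts, 118 in control and 17 in diseased-BWF1 mice, C2 was 6.72-fold lower in diseased-BWF1 mice relative to library size, with an exact 95% interval of 4.02 to 11.9 that covers counting error only. Its neighbour Cfb overlapped between the groups, and the ratio of Cfb to C2 was 101, 132 and 87.2 in control and 1780, 439 and 1131 in diseased-BWF1 mice. Shared sequence limits both genes: 37.0% of the 75-base sequences of C2 and 69.9% of those of Cfb also occur in Gm20547, an annotated locus spanning them.

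C3, the component on which all pathways meet, was higher in every diseased-BWF1 mouse than in any control. It stood at 2208, 1362 and 1238 normalised counts in control and 3940, 3525 and 3088 in diseased-BWF1 mice, or 1603 ± 528 against 3518 ± 426 (SD, n = 3). The spread among controls came mainly from control 1, which was still below the lowest diseased-BWF1 mouse. The log2 difference was 1.13 ± 0.24, a 2.19-fold higher level, with an adjusted p of 0.0859 by edgeR and 0.000453 by DESeq2. With control 1 left out, C3 was the 1 complement gene that edgeR called (log2 difference 1.43, adjusted p = 0.0494), and without control 3 the log2 difference was 0.98 (adjusted p = 0.162). It was also called by edgeR without the low-count filter (adjusted p = 0.0297), and DESeq2 called it with each mouse left out in turn (highest adjusted p 0.0222).

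Cfb, the alternative pathway's counterpart of C2, stood at 5439, 2990 and 3104 in control and 5043, 4887 and 3421 in diseased-BWF1 mice. Control 1 was the highest of all 6, and the groups overlapped. The log2 difference was 0.21 ± 0.28 (edgeR adjusted p = 0.797), and it was 0.54, 0.06 and 0.08 without control 1, 2 and 3 in turn. Cfp stood at 11567, 13627 and 17035 against 10880, 8605 and 7508, so that the groups did not overlap but control 1 and diseased-BWF1 mouse 1 lay close together. Its log2 difference was -0.65 ± 0.21 (edgeR adjusted p = 0.254, DESeq2 adjusted p = 0.0652) and was -0.48 without control 3, the mouse with the highest value. DESeq2 called it without control 1 (adjusted p = 0.0377) or without diseased-BWF1 1 (0.0183).

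Vsig4, the receptor and inhibitor, stood at 3488, 2886 and 4189 in control and 1872, 3394 and 1782 in diseased-BWF1 mice. Diseased-BWF1 mouse 2 lay within the control range while the other two lay below it. The log2 difference was -0.59 ± 0.28 (edgeR adjusted p = 0.441), and without diseased-BWF1 mouse 2 it was -0.94 and called by DESeq2 (adjusted p = 0.00104) but not by edgeR. Without control 3 it was -0.44. In the exact two-sided permutation test of single genes, the 6 genes whose groups stood apart reached 0.1, the smallest p that 3 against 3 mice allow, and C4b, Cfb and Vsig4 gave 0.9, 0.7 and 0.2.

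**Figure D2:**
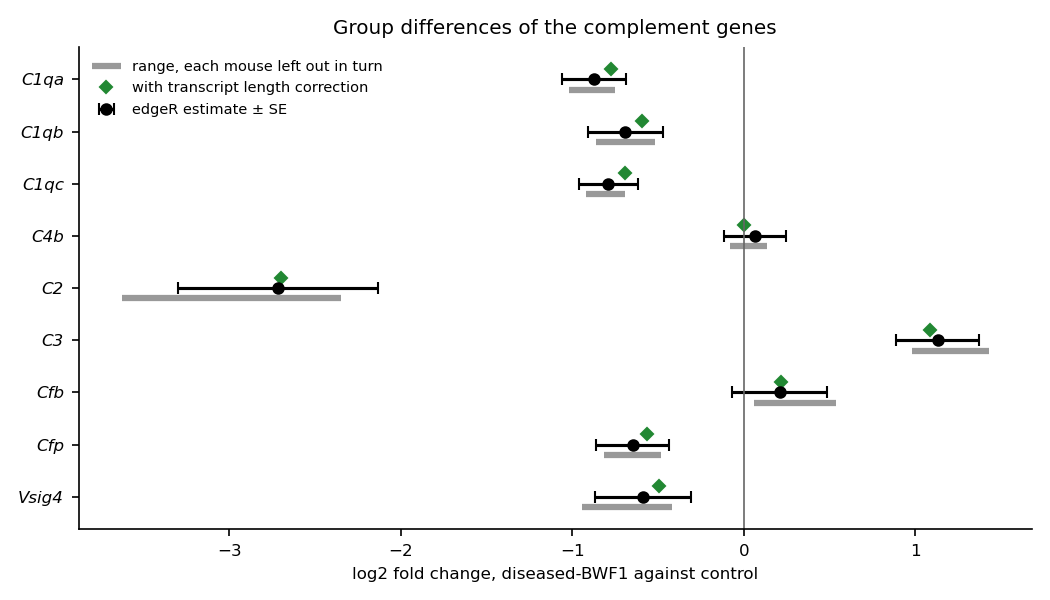
Log2 fold change of each complement gene, diseased-BWF1 against control (0 means equal). Black points with bars are edgeR estimates ± SE over 6 mice, grey bars the range when each mouse is left out in turn, and green diamonds the estimate after the transcript length correction. The C1q chains, C2, Cfp and Vsig4 stay below 0 and C3 above it in all of these, the SE bars of Cfb and C4b cross 0, and for C4b the leave-out range crosses it too.

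Set side by side, the classical recognition genes and the alternative pathway genes showed different patterns. The C1q chains had log2 differences between -0.88 and -0.69 with a median of -0.79, while C3, Cfb and Cfp ranged from -0.65 to 1.13 in both directions, so that their median of 0.21 is the value of Cfb and shifts with it to 0.54 without control 1 and 0.06 without control 2. The median over all genes tested was 0.01. The C1q chains made up 26.7, 26.0 and 30.4% of the normalised counts of the 9 genes in control mice and 21.8, 14.4 and 19.1% in diseased-BWF1 mice. C3, Cfb and Cfp together made up 17.5, 18.1 and 19.5% against 21.6, 16.6 and 16.9%, which overlapped. Within each mouse, the ratio of C3 to the summed C1q chains was 0.0754, 0.0528 and 0.0371 in control and 0.196, 0.238 and 0.195 in diseased-BWF1 mice. The ratio of C3 to Cfb was 0.406, 0.456 and 0.399 against 0.781, 0.722 and 0.903, also with no overlap. The ratio of Cfp to the C1q chains, by contrast, overlapped, at 0.395, 0.528 and 0.510 against 0.542, 0.582 and 0.473.

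**Figure D3:**
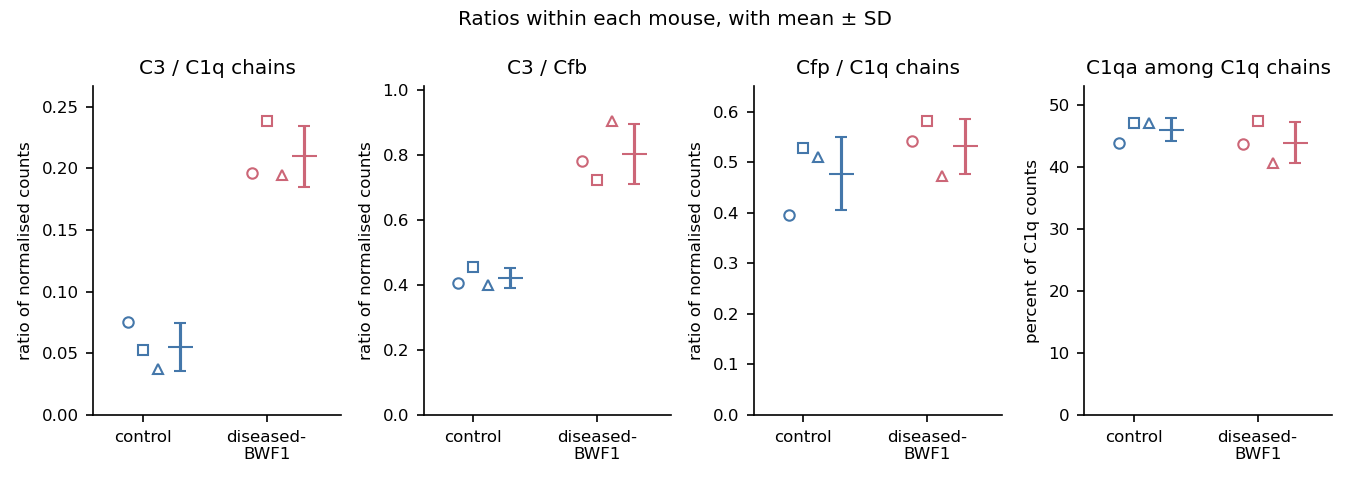
Ratios of normalised counts within each mouse (first 3 panels) and the share of C1qa among the C1q chain counts in percent (last panel), with 1 symbol per mouse and the mean ± SD (n = 3), axes from 0. The ratios of C3 to the C1q chains and to Cfb are higher in every diseased-BWF1 mouse, whereas Cfp to C1q and the share of C1qa overlap between groups.

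Between genes, levels can be compared only per transcript length. In CPM per kb, C1qa was highest in control mice at 3450 ± 490, followed by C4b (2635 ± 169), Cfp (2270 ± 453), C1qc (2034 ± 222) and C1qb (1606 ± 254), then Vsig4 (649 ± 121), Cfb (370 ± 132), C3 (82.2 ± 26.8) and C2 (3.73 ± 1.55; SD, n = 3). The mouse values of C4b and Cfp overlapped, as did those of Cfp and C1qc, and of C1qc and C1qb. In diseased-BWF1 mice C4b came first at 2757 ± 466, above C1qa (1880 ± 318), Cfp (1448.5 ± 286), C1qc (1177 ± 187) and C1qb (995 ± 234). Here the mouse values of C1qa and Cfp overlapped, as did those of Cfp and C1qc, and of C1qc and C1qb. Vsig4 (432 ± 167) and Cfb (428 ± 88.3) were alike within their spread, and C3 (180 ± 23.0) and C2 (0.56 ± 0.47) stayed last. The 9 genes took 2.20 to 2.88% of all counts on genes, and the groups overlapped.

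The rest of the complement system was read from lists of 57 genes by role, the 9 genes included. The low-count filter kept 26 of them, of which edgeR called none, 7 had an unadjusted p under 0.05 (13.2% of all genes tested did), and DESeq2 called 5 (3.54% of all genes tested). Of these, 6 of the 7 and 4 of the 5 are among the 9 genes described above. The 26 had a median log2 difference of -0.18, with 8 above and 18 below 0, against a median of 0.01 over all genes. Without the 9 genes, 17 tested genes remained with a median of -0.13, and Fcna was the only one with an unadjusted p under 0.05. Fcna encodes ficolin A, a recognition molecule of the lectin pathway. It stood at 1709, 1936 and 2857 CPM in control and 1276, 1283 and 1167 CPM in diseased-BWF1 mice, without overlap (log2 difference -0.80 ± 0.21, edgeR adjusted p = 0.155, DESeq2 adjusted p = 0.00892). Control 3 was the highest, and the log2 difference was -0.55 without it and -0.70 with the length correction.

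**Figure D4:**
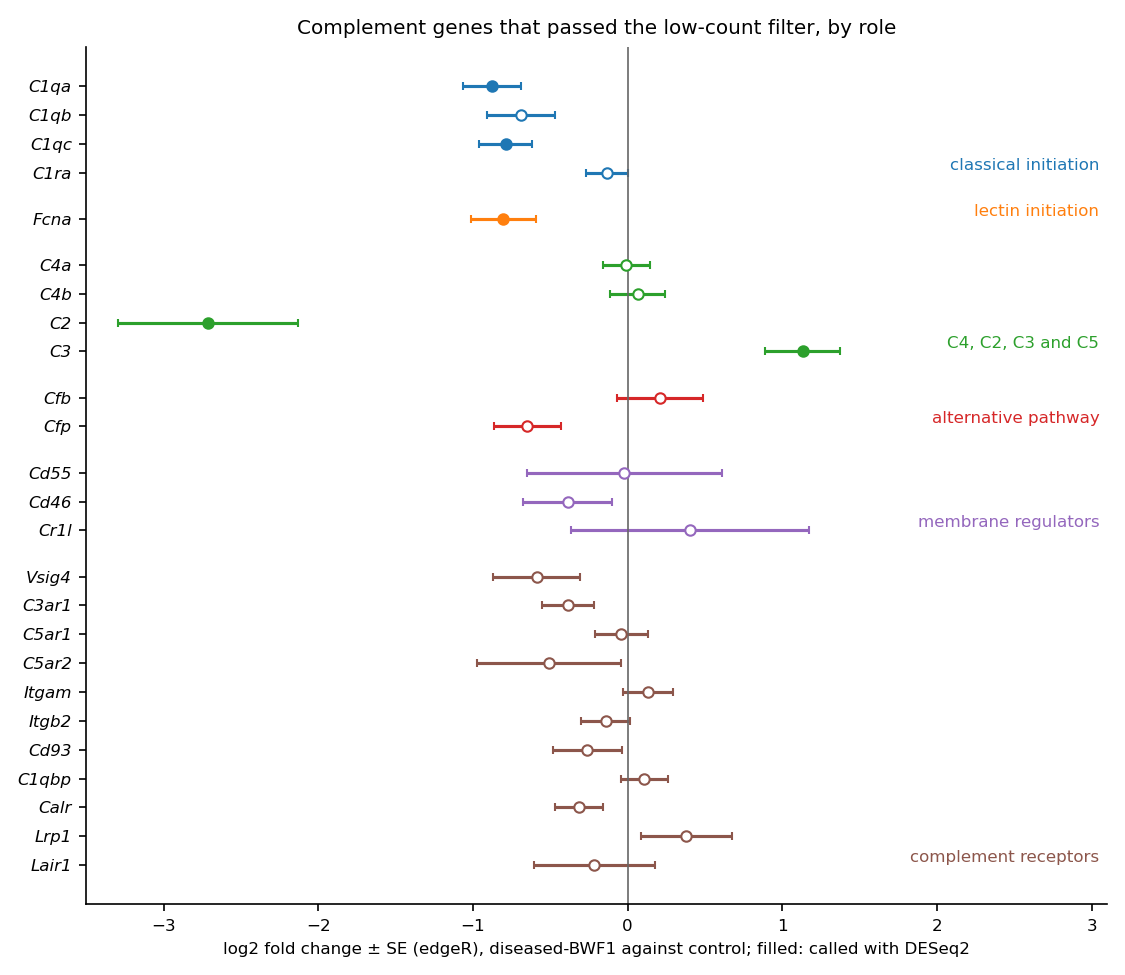
Log2 fold change ± SE (edgeR, 3 against 3 mice) of complement genes that passed the low-count filter, coloured by role and without the soluble regulators, with filled points for those called with DESeq2. The 5 filled points are C1qa, C1qc, Fcna and C2 below 0 and C3 above it.

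The proteases that act with C1q were low or overlapped between the groups. C1ra had 131 to 168 CPM in control and 130 to 136 CPM in diseased-BWF1 mice (log2 difference -0.13 ± 0.14, edgeR adjusted p = 0.738), C1rb had 0 to 28 counts per library, and C1s1 and C1s2 had at most 1 count. Of the lectin pathway, Mbl1, Mbl2, Fcnb, Masp1 and Colec10 were listed at 0 in every library and Masp2 had 3 to 11 counts. Hc (component C5) and Cfd (factor D) were listed at 0. No terminal component passed the filter: C8g had 7 to 11 counts, C6 had 0 to 3, and C7, C8a, C8b and C9 were listed at 0.

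Among soluble regulators Serping1, the C1 inhibitor, had 0 to 8 counts, and Cfi, C4bp, Clu and Vtn were listed at 0. The membrane regulators were low: Cr1l (log2 difference 0.40 ± 0.77) had 3.34 CPM in control 3 against 22.4 to 65.9 CPM in the other libraries and had a log2 difference of -0.12 without that mouse, and Cd55 had one of -0.02 ± 0.63, or 0.31 without control 3. Of 13 receptor genes 11 were tested, with 3 above and 8 below 0. None was called by edgeR (1.22% of all genes tested were) or by DESeq2 (3.54%). Only Calr, named for this, had groups that did not overlap, against 20.8% of all genes tested. It was lower in diseased-BWF1 mice (log2 difference -0.31 ± 0.16, edgeR adjusted p = 0.462, and -0.20 without control 3). The receptor genes highest in mean CPM, not scaled by transcript length, were Itgam and Lrp1. Itgam, a chain of complement receptor 3, had a log2 difference of 0.13 ± 0.16. Lrp1, a scavenger receptor, had one of 0.38 ± 0.29, or 0.14 without control 3. C3ar1, the receptor of the C3a fragment, named after its values were seen, had 327 to 478 CPM in control and 297 to 327 CPM in diseased-BWF1 mice (log2 difference -0.38 ± 0.17, edgeR adjusted p = 0.386, and -0.52 without control 3).

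A list of 11 transcription factors known to act on complement genes was measured in full, and edgeR called none (1.22% of all genes tested were called). DESeq2 called 1 of the 11, against 3.54% of all genes tested. This was Maf, a macrophage factor of the family that binds the TGCTGA core. Maf stood at 266, 306 and 414 CPM in control and 162, 115 and 236 CPM in diseased-BWF1 mice, without overlap (log2 difference -0.94 ± 0.29, edgeR adjusted p = 0.212, DESeq2 adjusted p = 0.0431). Without control 3 the difference was -0.74, and with the length correction -1.07. Cebpb, a C/EBP factor named after its values were seen, stood at 471, 404 and 126 CPM against 653, 799 and 414 CPM, with control 3 far below the rest (log2 difference 0.90 ± 0.47, edgeR adjusted p = 0.481, and 0.51 without control 3). Cebpd, the other C/EBP factor listed and also named afterwards, went the other way. It stood at 33.3, 33.1 and 48.6 CPM against 26.5, 29.9 and 24.5 CPM, without overlap. Its log2 difference was -0.50 ± 0.20 (edgeR adjusted p = 0.329, DESeq2 adjusted p = 0.467), and -0.30 without control 3.

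Markers of other cells were scarce. Summed B cell markers gave 3.80 to 6.09 CPM in control and 0.527 to 3.25 CPM in diseased-BWF1 mice over 6 of 7 genes measured, and no sum of T and NK cell, neutrophil, mast cell and eosinophil or mesothelial markers exceeded 4.75 CPM. Dendritic cell markers gave 9.50 to 10.9 and 8.17 to 14.1 CPM. Ly6g, Retnlg, Tpsb2, Mcpt4, Kit, Prg2, Epx, Msln and Col3a1 were listed at 0. The 6 markers of monocytes and small PMs were the exception, with a sum of 34.0 to 53.7 CPM in control and 130 to 155 CPM in diseased-BWF1 mice. The part of these cells in the levels of C1q, C2 and C3 was not tested.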

How the data were processed

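PMs of 3 control and 3 diseased-BWF1 mice were measured by RNA-seq. The deposited values are estimated counts per RefSeq record, in whole numbers. The submitters' processing notes name Salmon 0.8.0, DESeq2 and GRCm38.p6. Records were matched to RefSeq gene symbols and summed (of 107193 records, 45754 matched with their version and 40712 in another version). Genes were filtered with filterByExpr, scaled with TMM and tested with edgeR 4.0.16 in R 4.3.3 (quasi-likelihood test, Benjamini-Hochberg adjustment over 10505 genes). Levels are counts over DESeq2 1.42.0 size factors (0.8708 to 1.209) or TMM-scaled CPM, per kb of the GENCODE vM21 transcript of the main record where so stated. Alternatives were DESeq2, limma-voom 3.58.1, other scalings and filters, curated records only, age, a replicate block, a length correction (genes with a length: 93.9%) and each mouse left out. The edgeR and DESeq2 steps were tested on simulated data. The text names all 9 members, called list genes plus the 2 others highest in mean CPM per list, called transcription factors, and the 5 genes most like C1q and C3. Members and lists were chosen with earlier results of these data known. Some list genes are not reported here.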

Additional observations from a re-analysis of the deposited data

How the results depend on the processing

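Against 128 genes called by edgeR, DESeq2 called 372, edgeR without the low-count filter 259, with at least 10 counts in every library 84, and on curated mRNA records only 16. DESeq2 on curated records called 254 and without the filter 370. Of the 9 complement genes edgeR called 0 and DESeq2 4, in each of these DESeq2 settings, and edgeR without the filter 2. Of the 57 pathway genes the counts were 0, 5 and 2. Leaving out each mouse in turn gave 21 to 51 genes with edgeR and 254 to 309 with DESeq2, 0 to 1 and 3 to 5 complement genes, and 0 to 1 and 3 to 6 pathway genes. C4b reversed to -0.0774 (edgeR) and -0.0773 (DESeq2) without diseased-BWF1 replicate 2, with ranges up to 0.137 and 0.145. The predicted Cfb record XM_006523672 had a log2 difference of -3.31 ± 1.79 (edgeR adjusted p = 0.979 over 20332 records). It held 46, 85 and 25 counts in control and 0, 15 and 0 in diseased-BWF1 mice. The other Cfb records had log2 differences of 0.21, 0.67 and 1.79. The cause of these shifts was not tested. Correlations of same-numbered mice were 0.128, 0.00965 and 0.162. Controls 1 and 3 correlated best with the diseased-BWF1 mouse of the same number, and control 2 with diseased-BWF1 1. Whether replicate numbers pair the mice cannot be told from 3 such values. A fit with the numbers as a replicate block called 38 genes and 0 complement genes. With the block and the length correction, chosen after seeing the data as were the DESeq2 combinations, 73 genes and 0 complement genes were called and C4b was at -0.0117. The 3 to 11 counts of C2 in diseased-BWF1 mice limit its fold change.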

Other observations

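Among 6186 genes with at least 20 CPM, those whose log2 CPM followed the summed C1q chains most closely over the 6 libraries were Bcat2, Psmc3, P4ha2, Msra and Adk (Pearson's r 0.994 to 0.986, n = 6 mice). For C3, compared with 6188 genes, they were Ryr2, Diaph1, Rps6ka1, N4bp1 and Rapgef2 (r 0.994 to 0.985). Of the other complement genes, Cfp had r = 0.915 and Vsig4 r = 0.594 with the C1q chains, and C3 had r = -0.811. These values are descriptions: the points share the difference between the groups, and no test was made.

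At the level of single RefSeq records, both C1qc records were lower in diseased-BWF1 mice, with log2 differences of -0.79 ± 0.17 and -0.74 ± 0.20. A predicted C4b record, XM_006523532, had a log2 difference of 1.27 ± 0.28 (edgeR adjusted p = 0.27 over 20332 records) while the curated C4b record was at 0.06 ± 0.19.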
